A study of Mus musculus with 18 samples.

Results

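Cathepsins are the acid-active proteases of the lysosome, and 10 of their genes were followed here by symbol across all 18 livers of the series: Ctsa, Ctsb, Ctsc, Ctsd, Ctse, Ctsh, Ctsk, Ctsl, Ctss and Ctsz. They were taken from the 35441 genes of the deposited count table, which listed 23 cathepsin genes in all, and all 10 passed the filter of more than 100 reads summed over the 18 mice that 14533 genes passed. Poly(A) RNA of whole liver had been sequenced from 3 male mice in each of 6 groups. The groups were WT littermates, untreated Lipa-/- mice and rAAV8-treated Lipa-/- mice, each collected at 12-weeks and at 34-weeks post-injection (3 and 8 months in the labels). Lipa-/- mice lack lysosomal acid lipase (LAL), because exon 4 of Lipa was deleted in all cells by crossing the Lipatm1a line with mice carrying Cre under the CMV promoter, followed by backcrossing to C57/BL6N. Treated mice carried the same deletion and had received, at 10 to 12 weeks of age, a single-stranded rAAV8 with human LIPA cDNA under the hAAT promoter, chosen for expression in hepatocytes. The dose of the sequenced mice was not given in the labels. Most untreated Lipa-/- mice meant for the later time had to be killed earlier on ethical grounds, and the age of each mouse at collection was not given in the labels.

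In lysosomes, serine (Ctsa), aspartic (Ctsd, Ctse) and cysteine cathepsins (the other 7) degrade the proteins delivered by endocytosis and autophagy. Most are made as inactive proenzymes, tagged with mannose 6-phosphate in the Golgi and activated at low pH, while cystatins inhibit cysteine cathepsins that escape into the cytosol or outside the cell. Hepatocytes and macrophages both express the widely distributed members, whereas cathepsin S is best known from antigen-presenting phagocytes and cathepsin K from bone-resorbing osteoclasts.

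Library depth ranged from 17527848 to 25833134 estimated reads, with a median of 21160129. Levels are given as CPM, counts relative to the total of a library, here its size multiplied by a trimmed mean of M values (TMM) factor. Murine Lipa ranged from 202 to 323 CPM in the 6 WT livers and from 16.7 to 37.0 in the 12 Lipa-/- livers, treated or not. The human transgene ranged from 523 to 2746 CPM in treated livers and was at 0 in untreated Lipa-/- livers, with 23 reads and 1 read in WT mice 2 and 1 of 34-weeks. The TMM factors ran from 0.587 to 1.69 and were lowest in the 3 treated livers of 12-weeks. All mice of 34-weeks shared 1 study code that no mouse of 12-weeks had, so time and study code cannot be told apart. Of the 9 mice of 12-weeks, 8 shared another code, and untreated Lipa-/- mouse 5 had a code of its own. Without it, the 7 cathepsins called against WT at 12-weeks were still called, and Ctse was called as well.

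Compared per length, on the deposited scale of transcripts relative to all transcripts of a liver (TPM), Ctsl led the cathepsin pool in all 3 WT livers of 12-weeks and in 2 of 3 of 34-weeks. In WT mouse 1 of 34-weeks Ctsh was above it (378 against 273 TPM). The 10 genes summed to 1031, 1130 and 1078 TPM in WT mice 1, 2 and 3 of 12-weeks and to 5001, 6563 and 7812 TPM in Lipa-/- mice 5, 8 and 9. At 34-weeks the sums were 1237, 1543 and 1433 TPM in WT and 9199, 7443 and 6239 TPM in Lipa-/- mice 4, 5 and 6. Every Lipa-/- liver was therefore above every WT liver at both times. Treated livers summed to 1057, 1396 and 965 TPM at 12-weeks and to 1521, 1446 and 1760 TPM at 34-weeks. Their range in TPM overlapped that of WT at each time. In CPM the sums of 12-weeks did not overlap, with 3384 to 4153 in treated and 1943 to 2555 in WT livers. At 34-weeks the CPM sums overlapped, with 2112 to 2959 in treated and 2278 to 3021 in WT livers.

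The make-up of the pool differed as well. In WT livers of 12-weeks, Ctsl held 28.1% ± 0.062 (SD, n = 3), Ctsb 17.9% ± 2.07 and Ctsd 14.2% ± 0.945 of the cathepsin TPM, and Ctsh, the second, from 16.6% to 24.2%. The share of Ctsl was above that of Ctsh in all 3 livers, while the ranges of Ctsh and Ctsb overlapped. In Lipa-/- livers of the same time, Ctsd came first with 30.1% ± 2.82, followed by Ctss with 18.3% ± 4.33 and Ctsb with 15.8% ± 3.83, and the ranges of Ctss and Ctsb overlapped. Ctsl then held 10.6% ± 0.856 and Ctsh 4.41% ± 0.840. Ctss, the eighth of the 10 genes in WT livers with 1.31% ± 0.338, was the second in Lipa-/- livers.

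**Figure D1:**
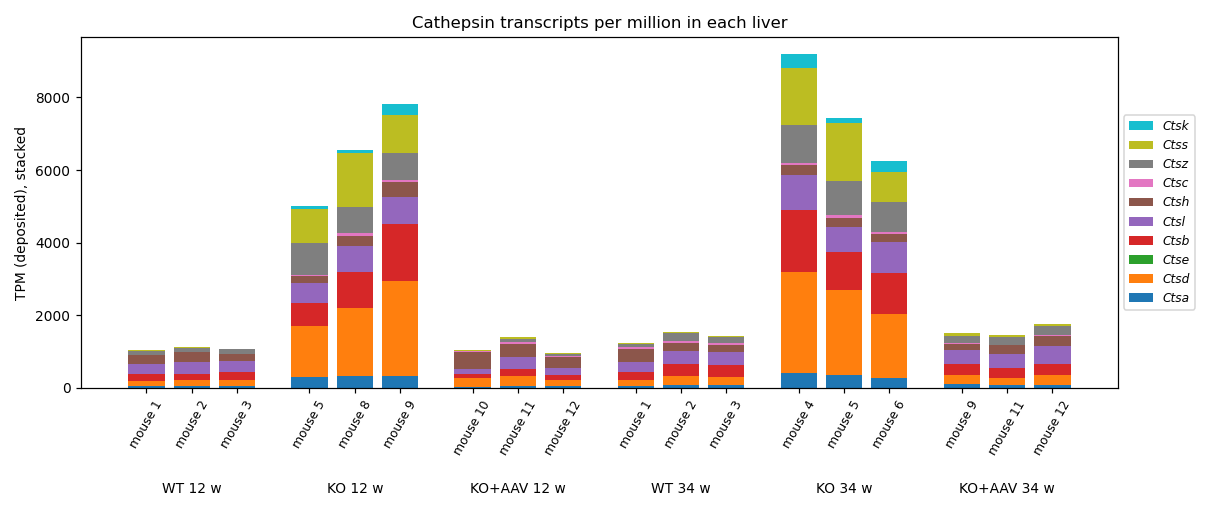
Stacked TPM of the 10 cathepsin genes (y axis, deposited values, from 0) in each of the 18 livers (bars, 3 mice per group; KO, untreated Lipa-/-; KO+AAV, rAAV8-treated Lipa-/-; w, weeks post-injection). The 6 untreated Lipa-/- livers lie between 5001 and 9199 TPM and the other 12 between 965 and 1760 TPM.

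The first comparison asked how loss of LAL altered cathepsin expression. At 12-weeks, 7 of the 10 genes were higher in Lipa-/- than in WT livers and 0 were lower, where a gene was called if its log2 fold change was beyond 1 in either direction with an edgeR adjusted p under 0.05. Over all 14533 genes, 20.2% were called higher and 9.06% lower. At 34-weeks, 6 were higher and 0 lower, against 20.5% and 15.7% of all genes. The median log2 fold change of the 10 genes was 2.26 at 12-weeks and 1.79 at 34-weeks, beside 0.02 and -0.03 for all genes. In whole-liver RNA, fewer or more cells of a type and less or more RNA per cell cannot be told apart. The share of all genes without overlap in CPM was not counted for any comparison. Here and below, overlap of groups only describes the single values.

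The serine carboxypeptidase Ctsa protects beta-galactosidase and neuraminidase 1 in a lysosomal complex. Ctsa had 108, 138 and 114 CPM in WT mice 1, 2 and 3 and 576, 587 and 533 CPM in Lipa-/- mice 5, 8 and 9 of 12-weeks. The groups did not overlap, and Ctsa was 4.71-fold higher (log2 fold change 2.24 ± 0.20 SE, edgeR adjusted p = 3.62e-07). At 34-weeks it had 153, 142 and 117 CPM in WT and 452, 524 and 395 CPM in Lipa-/- mice 4, 5 and 6, a difference of 3.32-fold (adjusted p = 2.83e-06). Of its partners, Glb1, the beta-galactosidase, was called higher at both times (log2 fold change 1.59 and 1.51), and the neuraminidase Neu1 at 12-weeks only (1.00, adjusted p = 0.000972), with 0.31 at 34-weeks (adjusted p = 0.23). The change of this difference for Neu1 between the times was -0.69 ± 0.29 and did not pass the test (edgeR adjusted p = 0.43).

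Ctsd, the main aspartic endopeptidase of lysosomes, was the most abundant cathepsin of Lipa-/- livers. It had 315, 390 and 321 CPM in WT and 2254, 3044 and 3890 CPM in Lipa-/- livers at 12-weeks. The lowest Lipa-/- liver was far above the highest WT liver, and the difference was 8.95-fold (log2 fold change 3.16 ± 0.27, edgeR adjusted p = 2.69e-07). At 34-weeks, WT livers had 381, 387 and 396 CPM and Lipa-/- livers 2717, 3013 and 2243 CPM, a difference of 6.85-fold (adjusted p = 5.85e-07). Ctse, an endosomal aspartic protease of epithelia and lymphoid cells, was close to the limit of detection. It had 1, 2 and 7 reads in WT and 6, 20 and 24 reads in Lipa-/- livers of 12-weeks, with overlapping groups, and its difference did not pass the test (log2 fold change 1.89 ± 0.85, adjusted p = 0.0874), although it was called without WT mouse 3 or without Lipa-/- mouse 5. At 34-weeks Ctse had 2, 12 and 11 reads in WT and 27, 20 and 18 in Lipa-/- livers (1.11 ± 0.76, adjusted p = 0.248).

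Ctsb, a cysteine protease that both cuts inside proteins and trims their C-terminal end, had 567, 658 and 583 CPM in WT and 2516, 3194 and 4075 CPM in Lipa-/- livers at 12-weeks. It was 5.41-fold higher without overlap (log2 fold change 2.44 ± 0.24, edgeR adjusted p = 7.93e-07). At 34-weeks it had 881, 731 and 768 CPM in WT and 3272, 3285 and 2715 CPM in Lipa-/- livers, 3.89-fold higher (adjusted p = 4.28e-06). Ctsl, a broad cysteine endopeptidase, had smaller log2 fold changes. It had 548, 674 and 490 CPM in WT and 854, 1032 and 968 CPM in Lipa-/- livers at 12-weeks. The groups did not overlap at either time, and the adjusted p was 0.0238 at 12-weeks and 0.0152 at 34-weeks, but the log2 fold changes of 0.74 ± 0.24 and 0.77 ± 0.24 stayed under the threshold of 1. With total counts, which moved the median of all genes up by 0.467 at 12-weeks and 0.629 at 34-weeks, Ctsl passed it (log2 fold change 1.22 and 1.43), as it did with TPM (1.14 and 1.38).

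The exopeptidases differed from each other. Ctsz, a carboxypeptidase of monocytes and macrophages, had 143, 182 and 162 CPM in WT and 924, 764 and 696 CPM in Lipa-/- livers of 12-weeks (4.90-fold, edgeR adjusted p = 0.00013). At 34-weeks it had 169, 226 and 196 CPM against 651, 782 and 692 CPM (3.59-fold, adjusted p = 0.000554), again without overlap. Ctsc, the dipeptidyl peptidase that activates granule serine proteases, was higher at 12-weeks, with 34.3, 46.3 and 41.2 CPM in WT and 82.4, 151 and 126 CPM in Lipa-/- livers (2.95-fold, adjusted p = 0.000463). At 34-weeks its groups overlapped, with 127, 89.9 and 76.5 CPM in WT and 83.2, 117 and 91.1 CPM in Lipa-/- livers (log2 fold change -0.01 ± 0.28, adjusted p = 0.986). The WT livers of 34-weeks were all above those of 12-weeks, whereas the Lipa-/- livers of the 2 times overlapped, and the test of the change itself gave -1.57 ± 0.41 (adjusted p = 0.163). Ctsh, an aminopeptidase, overlapped between groups at 12-weeks (331, 437 and 218 CPM in WT, 175, 316 and 431 CPM in Lipa-/-). At 34-weeks all 3 Lipa-/- livers (183, 208 and 203 CPM) were below all 3 WT livers (675, 237 and 222 CPM), with WT mouse 1 far above the other two, and the difference did not pass the test (-0.93 ± 0.44, adjusted p = 0.0922), although it was called without WT mouse 3. Without WT mouse 1 it was -0.21 (adjusted p = 0.7).

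Ctss and Ctsk had the largest log2 fold changes of the 10 genes at both times. Ctss, which cleaves the invariant chain before peptide loading of class II molecules, had 16.9, 28.0 and 12.7 CPM in WT and 931, 1412 and 960 CPM in Lipa-/- livers of 12-weeks. It was 57.2-fold higher (log2 fold change 5.84 ± 0.42, edgeR adjusted p = 5.05e-08). At 34-weeks Ctss had 22.8, 37.8 and 21.3 CPM against 922, 1248 and 624 CPM (34.1-fold, adjusted p = 1.32e-07). Ctsk, a strong collagenase, was almost silent in WT livers, with 15, 19 and 10 reads at 12-weeks and 8, 16 and 12 reads at 34-weeks. That corresponded to 0.804, 0.909 and 0.523 CPM and to 0.472, 0.631 and 0.467 CPM. Lipa-/- livers had 88.8, 112 and 288 CPM at 12-weeks and 255, 131 and 253 CPM at 34-weeks. Mouse 9 of 12-weeks and mice 4 and 6 of 34-weeks were high and the other 3 lower, and all 6 were above every WT liver. Ctsk was 217-fold higher at 12-weeks (log2 fold change 7.76 ± 0.72, adjusted p = 5.21e-07) and 400-fold higher at 34-weeks (8.65 ± 0.75, adjusted p = 2.49e-07). Without Lipa-/- mouse 9 it was 134-fold higher at 12-weeks. All 7 calls of 12-weeks and all 6 of 34-weeks were also made under each alternative tried, each mouse left out in turn included.

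**Figure D2:**
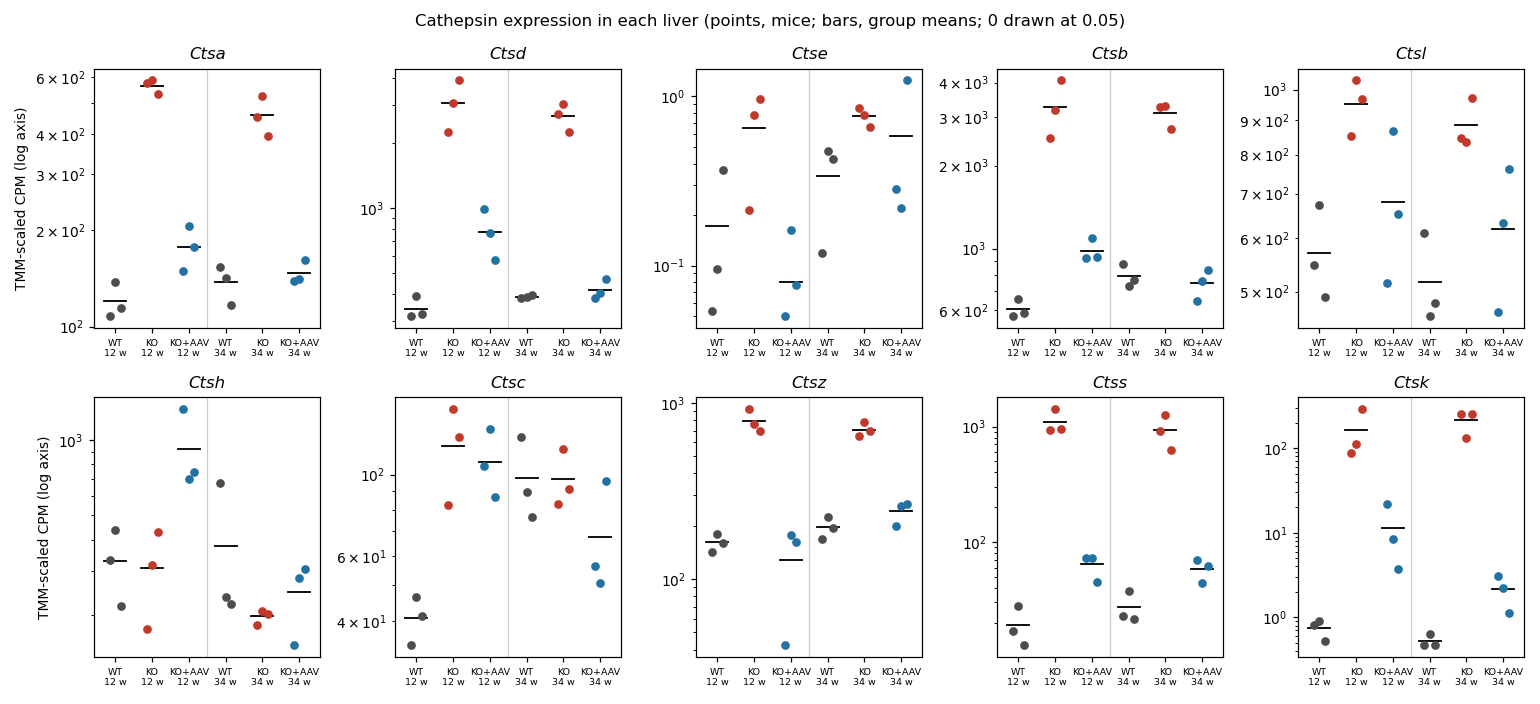
CPM with TMM factors (y axes, log scale, 1 panel per gene with its own range) of the 10 cathepsin genes in each liver (points, 3 mice per group in order of mouse number; bars, group means; KO, untreated Lipa-/-; KO+AAV, rAAV8-treated Lipa-/-; w, weeks post-injection; the Ctse value of 0 is drawn at 0.05). Ctsk spans from 0.467 to 288 CPM, Ctsl only from 459 to 1032 CPM, and treated livers of 12-weeks lie between WT and Lipa-/- livers for Ctsa, Ctsb, Ctsd, Ctsk and Ctss.

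Promoters of some of the members are shown because of 2 motifs found in them. From RefSeq on GRCm38.p6, 7 of the 10 genes matched a promoter entry, with 8 promoters in all, and the windows searched ran from 250 bases before to 50 after the start. Promoters of Ctsb, Ctse and Ctsh were not matched. The E-box CACGTG and its extended form TCACGTGA, known as the CLEAR motif bound by Tfeb on lysosomal genes, were searched on both strands. Both are their own reverse complement, and every TCACGTGA holds a CACGTG. TCACGTGA was found in 2 of the 8 promoters, in Ctsa and in Ctsd, against 0.974% of 32851 promoters. CACGTG was in 3 of 8, with Ctsl added, against 7.15% of all. GAGGAA, a core of sites of the myeloid factor PU.1, was in 3 of 8, those of Ctsk, Ctss and Ctsc, against 28.3% of all. A match is a description of these letters and not evidence of binding. Below, the 250 bases before the start and the first 15 after it are printed for the genes with the extended E-box and for the 2 genes with the largest changes. Capitals mark CACGTG or TCACGTGA in Ctsa and Ctsd, and GAGGAA or its reverse complement in Ctsk and Ctss.

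Ctsa, which has a further promoter entry without a motif, chr2:164833523-164833787, plus strand:
Ctsa: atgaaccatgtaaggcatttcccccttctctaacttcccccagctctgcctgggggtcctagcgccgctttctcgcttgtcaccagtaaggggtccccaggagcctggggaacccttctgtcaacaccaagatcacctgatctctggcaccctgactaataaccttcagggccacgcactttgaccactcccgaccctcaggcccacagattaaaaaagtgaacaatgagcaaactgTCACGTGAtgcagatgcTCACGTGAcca
Ctsd, chr7:142387813-142388077, minus strand:
Ctsd: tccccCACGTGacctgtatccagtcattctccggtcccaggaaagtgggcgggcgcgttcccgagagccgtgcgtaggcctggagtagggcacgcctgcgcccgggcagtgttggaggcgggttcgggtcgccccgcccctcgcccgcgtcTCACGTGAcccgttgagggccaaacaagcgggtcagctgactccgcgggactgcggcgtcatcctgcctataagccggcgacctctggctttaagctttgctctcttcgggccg
Ctsk, chr3:95498960-95499224, plus strand:
Ctsk: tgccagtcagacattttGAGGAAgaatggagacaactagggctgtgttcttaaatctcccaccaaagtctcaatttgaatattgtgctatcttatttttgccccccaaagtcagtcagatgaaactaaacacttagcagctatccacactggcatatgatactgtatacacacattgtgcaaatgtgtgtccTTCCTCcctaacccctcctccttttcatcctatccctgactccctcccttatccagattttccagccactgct
Ctss, chr3:95526536-95526800, plus strand:
Ctss: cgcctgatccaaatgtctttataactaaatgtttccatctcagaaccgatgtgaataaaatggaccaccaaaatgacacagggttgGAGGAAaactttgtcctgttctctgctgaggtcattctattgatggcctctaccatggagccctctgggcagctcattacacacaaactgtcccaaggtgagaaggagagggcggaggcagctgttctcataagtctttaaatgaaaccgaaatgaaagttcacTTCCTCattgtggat

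In Ctsa, both copies lie next to the start, beginning 13 bases before it and 4 bases after it. In Ctsd the extended motif begins 99 bases before the start. In Ctsk the copies of GAGGAA begin 233 and 58 bases before the start, and in Ctss 164 bases before it and at it. Ctsk and Ctss are also neighbours, on chromosome 3 of GRCm39 at 95406178 to 95416732 and 95433963 to 95463717, both on the plus strand, with 17230 bases between them. The other 8 genes lie apart, Ctsc and Ctsd on chromosome 7 and Ctsa and Ctsz on chromosome 2 being the only other members that share a chromosome.

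Cell type markers also differed between Lipa-/- and WT livers, in both directions. Of 12 macrophage markers, 11 were called higher in Lipa-/- livers of 12-weeks and all 12 at 34-weeks. Their summed level ran from 153 to 309 CPM in WT and from 3619 to 6805 CPM in Lipa-/- livers of 12-weeks, and from 233 to 422 and from 2736 to 5514 CPM at 34-weeks. None of the 12 was at 0 in any group. All 7 markers of lipid-associated macrophages were called higher at both times, from 120 to 191 CPM summed in WT to between 3485 and 7122 CPM in Lipa-/- livers of 12-weeks. Of 5 Kupffer cell markers, Marco and Cd5l were called higher at 12-weeks and Timd4, a receptor of resident Kupffer cells, lower (log2 fold change -3.62, edgeR adjusted p = 0.00299), and at 34-weeks 0 were higher and 2 lower. All 7 neutrophil markers were called higher at 12-weeks and 6 at 34-weeks, with Ngp, Camp and Mpo at 0 in WT livers of that time. Hepatocyte markers summed to between 63322 and 79761 CPM in WT and between 38244 and 57812 CPM in Lipa-/- livers of 12-weeks, with 3 of 8 called lower at 12-weeks, 6 at 34-weeks and 0 higher at either. Of 8 stellate cell markers, 6 were called higher at 12-weeks and 7 at 34-weeks, and 1 lower at each. Of 5 T and NK cell markers 4 and 3 were higher, of 4 cholangiocyte markers 2 and 4, and none lower. Of 6 endothelial markers 1 was higher and 2 lower at each time, and of 4 B cell markers 1 was higher at 12-weeks and 1 lower at 34-weeks. The part of these cells in the cathepsin differences was not tested.

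The genes closest in group means to Ctss and to Ctsz included phagocyte genes among others. Each member was set against the 12599 genes whose mean reached 1 CPM by the root mean square difference of the 6 centred group means of log2 CPM. Closest to Ctss were Lrtm2 (0.18), Cd300lf (0.187) and the macrophage marker Cd68 (0.189), and closest to Ctsz were Csf1r (0.128), the receptor for macrophage colony-stimulating factor, Hmga1 and Rhog. Ctsd was closest to Rhoc (0.126), to the lysosomal protease Lgmn (0.126) and to the alpha-galactosidase Gla (0.13). Ctsb was closest to Fuca2 (0.056), a fucosidase, and Ctsa to Jpt1 (0.116). Ctsk had no close neighbour on this scale, with Npy at 0.309, Lgals3 at 0.563 and Clec4d at 0.581. Among the members, Ctsa and Ctsb lay closest (0.143), followed by Ctsb and Ctsd (0.348). The nearest genes to Ctsc (Ung, Snai2 and Zfp764), Ctse (Cabin1, Tmc8 and Arhgap17), Ctsh (Uxt, Sdf2 and Dpm3) and Ctsl (Thg1l, Dvl2 and Mrgbp) lay between 0.041 and 0.172. Likeness over 6 group means is a description only.

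The second comparison asked what rAAV8 treatment left of these differences. In treated against untreated Lipa-/- livers at 12-weeks, 7 of the 10 genes were lower and 1 higher, and over all genes 25.3% were called lower and 16.2% higher. The 7 include Ctse, which passed the read filter only through its reads in untreated Lipa-/- livers, so its call gives no support. At 34-weeks 6 were lower and 0 higher, against 18.6% and 12.8% of all genes. Lower at 34-weeks were Ctsa, Ctsb, Ctsd, Ctsk, Ctss and Ctsz. This comparison shares its untreated Lipa-/- mice with the first one. The median log2 fold change of the 10 genes was -1.86 at 12-weeks and -1.59 at 34-weeks, beside -0.19 and 0.03 for all genes.

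Ctss and Ctsk had the largest decreases at both times. For Ctsk, treated livers had 22.2, 8.37 and 3.68 CPM in mice 10, 11 and 12 of 12-weeks and 3.05, 2.24 and 1.13 CPM in mice 9, 11 and 12 of 34-weeks. No treated liver reached the range of untreated Lipa-/- livers, and none came down to that of WT. Ctsk was 14.4-fold lower than in untreated Lipa-/- livers at 12-weeks (log2 fold change -3.85 ± 0.58, edgeR adjusted p = 6.92e-05) and 99.6-fold lower at 34-weeks (-6.64 ± 0.67, adjusted p = 1.61e-06). The value at 12-weeks was 8.90-fold without untreated mouse 9 and 27.3-fold without treated mouse 10. Ctss had 73.1, 73.1 and 45.4 CPM at 12-weeks and 70.2, 43.8 and 62.5 CPM at 34-weeks. These values lay between the WT and Lipa-/- ranges in all 6 treated livers, 17.2-fold (adjusted p = 1.38e-06) and 15.8-fold (adjusted p = 1.18e-06) below untreated Lipa-/- livers.

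Ctsd had 993, 763 and 576 CPM in treated livers of 12-weeks, 3.94-fold below untreated Lipa-/- livers (edgeR adjusted p = 2.06e-05), and 381, 402 and 469 CPM at 34-weeks, 6.37-fold below (adjusted p = 1.55e-06). Ctsb had 921, 1090 and 935 CPM at 12-weeks and 645, 762 and 834 CPM at 34-weeks, 3.32-fold (adjusted p = 2.32e-05) and 4.14-fold (adjusted p = 4.58e-06) lower. Ctsa had 149, 206 and 177 CPM at 12-weeks and 139, 141 and 161 CPM at 34-weeks, 3.19-fold (adjusted p = 8.26e-06) and 3.11-fold (adjusted p = 7.19e-06) lower. For all 3 genes every treated liver was below every untreated one, and treated livers of 34-weeks overlapped WT livers of the same time.

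Ctsz had 42.3, 179 and 163 CPM in treated livers of 12-weeks and 202, 261 and 267 CPM at 34-weeks. Mouse 10 of 12-weeks was below every other liver of the series, while the other 2 lay within the WT range. Ctsz was 6.19-fold below untreated Lipa-/- livers at 12-weeks (edgeR adjusted p = 4.4e-05) and 2.91-fold below at 34-weeks (adjusted p = 0.00261). Mouse 10 also had the lowest TMM factor (0.587). Ctse was called lower at 12-weeks on few reads, with 0, 3 and 1 in the treated and 6, 20 and 24 in the untreated livers (log2 fold change -2.75 ± 0.98, adjusted p = 0.0253), and the call was lost without untreated mouse 8 or 9 or without treated mouse 10 or 12. At 34-weeks Ctse had 7, 4 and 32 reads in treated livers, which overlapped untreated ones.

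Ctsh went the other way at 12-weeks. Treated livers had 1331, 701 and 744 CPM, all above every WT and every untreated Lipa-/- liver of that time, and 151, 282 and 305 CPM at 34-weeks, when the groups overlapped. At 12-weeks the difference from untreated Lipa-/- livers was 3.01-fold (log2 fold change 1.59 ± 0.45, edgeR adjusted p = 0.00718). Under total counts it was 0.68 (adjusted p = 0.122) and with TPM 0.43 (adjusted p = 0.224), so that the call depended on the scaling. Ctsc and Ctsl were not called between treated and untreated livers at either time. Ctsc had 105, 133 and 86.6 CPM in treated livers of 12-weeks, within the range of untreated ones, and 56.4, 50.6 and 95.9 CPM at 34-weeks. Ctsl had 516, 869 and 653 CPM at 12-weeks and 465, 632 and 762 CPM at 34-weeks (log2 fold change -0.49 ± 0.24 and -0.51 ± 0.24, adjusted p = 0.101 and 0.104). With total counts, which moved the median of all genes by -0.866 and -0.542, Ctsl was called lower at both times (-1.33 and -1.06), and Ctsc at 34-weeks (-1.05). With TPM, Ctsc was called lower at both times (-1.23 and -1.07) and Ctsl at 12-weeks (-1.68).

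**Figure D3:**
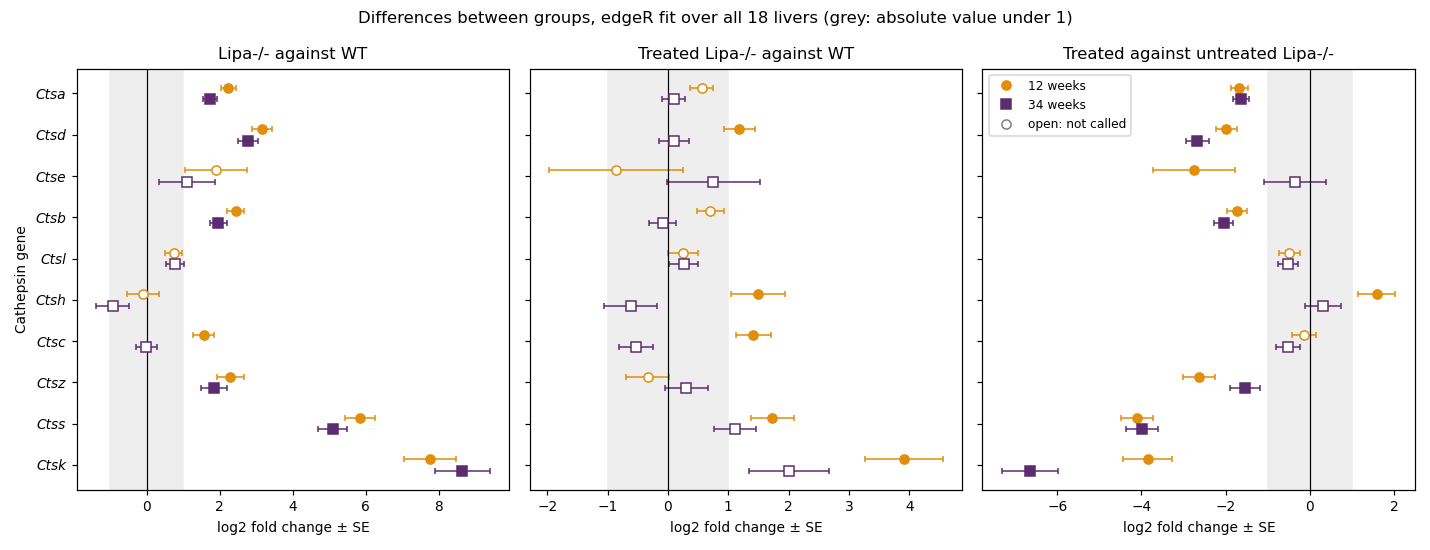
Log2 fold changes with standard errors (x axes; the 3 panels have their own ranges) of the 10 cathepsin genes at 12-weeks (circles) and 34-weeks (squares) from the edgeR fit over 18 livers, with filled symbols for called genes and a grey band for absolute values under 1. In treated against WT livers, 5 genes are called at 12-weeks and 0 at 34-weeks.

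Against WT livers, treated livers of 12-weeks had 5 of the 10 genes called higher and 0 lower, where 13.6% of all genes were called higher and 12% lower. The 5 were Ctsk (log2 fold change 3.91, adjusted p = 0.00195), Ctss (3.32-fold, adjusted p = 0.00413), Ctsh (2.82-fold, adjusted p = 0.018), Ctsc (2.67-fold, adjusted p = 0.00423) and Ctsd (2.27-fold, edgeR adjusted p = 0.00487). For each of them, every treated liver was above every WT liver, which is a description beside the calls. Ctsb and Ctsa passed the adjusted p alone, with log2 fold changes of 0.70 ± 0.23 (adjusted p = 0.0242) and 0.56 ± 0.19 (adjusted p = 0.0315). Ctsz (-0.34 ± 0.36), Ctsl (0.25 ± 0.24) and Ctse (-0.86) did not pass.

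Part of this depended on the scale. With total counts, the median of all genes moved by -0.390, and 4 members were called higher, beside 4046 of 14533 genes in either direction. With TPM the median moved by -0.310, and 3 members were called, beside 2468 of 14533 genes in either direction. These members were Ctsk and Ctss, higher (log2 fold change 1.72 and 1.06), and Ctsz, lower (-1.23, limma adjusted p = 0.0485). Ctsa, Ctsb and Ctsl changed sign with TPM, to -0.27, -0.50 and -0.54, with adjusted p of 0.435, 0.233 and 0.13. For Ctsb this can be read from single mice, since treated livers had 95.9, 182 and 143 TPM and WT livers 182, 180 and 216 TPM, whereas in CPM every treated liver was above every WT liver. Without treated mouse 10, 3 members were called, those lost were Ctsd and Ctsh, and Ctsk was at 2.94 (adjusted p = 0.00832). Ctsh was also lost without WT mouse 1 or 3.

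**Figure D4:**
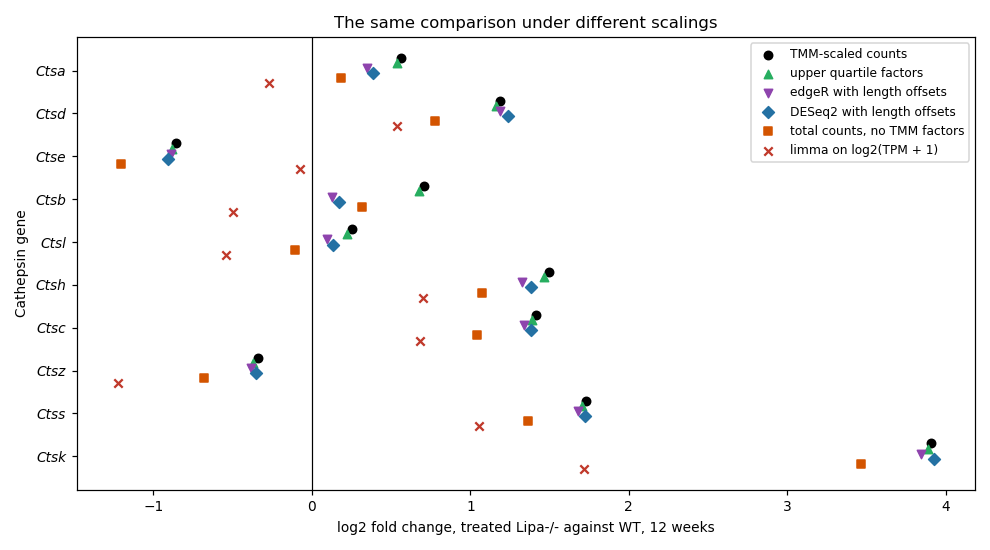
Log2 fold changes of treated Lipa-/- against WT livers at 12-weeks (x axis) for the 10 cathepsin genes (y axis) under 6 settings of scaling and tool (symbols). Ctsk and Ctss stay above 1 in all 6, whereas Ctsa and Ctsb are above 0 with TMM-scaled counts and below 0 with TPM.

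At 34-weeks, 0 of the 10 genes were called between treated and WT livers with edgeR or any alternative tried, DESeq2 included, and 0.22% of all genes were called in either direction. Ctsk and Ctss had an unadjusted p under 0.05, as 837 of all genes did. Ctsk was 4.02-fold higher (log2 fold change 2.01 ± 0.66, edgeR adjusted p = 0.532) and Ctss 2.16-fold higher (1.11 ± 0.35, adjusted p = 0.474), and for both every treated liver was above every WT liver. Since the share of all genes without overlap was not counted, no difference is read from this for either gene. The other 8 had log2 fold changes between -0.62 (Ctsh) and 0.75 (Ctse), with overlapping groups.

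Markers of several cell types also differed between treated and WT livers. In treated against WT livers at 12-weeks, 6 of 12 macrophage markers were called higher and 1 lower, their sum ranging from 839 to 2516 CPM, and 6 of 7 lipid-associated macrophage markers were called higher, with sums from 373 to 807 CPM. At 34-weeks 0 of the 12 macrophage markers were called, with sums from 329 to 801 CPM. Of the lipid-associated markers 4 were still called higher at 34-weeks, with sums from 224 to 402 CPM against 95.9 to 151 CPM in WT livers. At 12-weeks 4 of 8 stellate cell, 3 of 5 T and NK cell and 2 of 4 B cell markers were also called higher. So were 1 of 5 Kupffer cell and 1 of 7 neutrophil markers, and none of these lists had a marker called lower. Of 8 hepatocyte markers 1 was higher and 2 lower. Of 6 endothelial markers 1 was higher and 1 lower, and no cholangiocyte marker was called. At 34-weeks 1 T and NK cell marker was called higher, and no other marker of these further lists. Neutrophil markers differed widely among treated livers of 34-weeks, with summed levels from 1.69 to 829 CPM and a median of 2.93 CPM. Their sums ran from 1.05 to 5.72 CPM in WT and from 111 to 294 CPM in untreated Lipa-/- livers of that time. The part of all these markers in the levels of Ctsk and Ctss was not tested.

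Between the times, 0 of the 10 genes were called in WT livers (0.323% of all genes in either direction) or in untreated Lipa-/- livers (0.495%) with edgeR. In WT livers the single member with an unadjusted p under 0.05 was Ctsc (log2 fold change 1.27 ± 0.29, adjusted p = 0.0829), which DESeq2 called, and in untreated Lipa-/- livers there was none, nor did DESeq2 call any. Over all genes 1133 and 2265 had such a p. In treated livers, 1 was higher at 34-weeks and 2 were lower, where 17.5% of all genes were called higher and 14.5% lower. Ctsh fell by 1.91 on the log2 scale (SE 0.45, edgeR adjusted p = 0.00358) and Ctsk, with a log2 fold change of -2.40 (SE 0.58, adjusted p = 0.00388), was lower, both without overlap, and Ctse was higher (2.62 ± 0.98, adjusted p = 0.0389) on 0, 3 and 1 against 7, 4 and 32 reads. The call of Ctse was lost without treated mouse 10 or 12 of 12-weeks or mouse 12 of 34-weeks, and Ctsk was at -1.47 without mouse 10 (adjusted p = 0.0413). With TPM and a pseudocount of 1, Ctsh (-0.79) and Ctsk (-0.83) were not called.

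The change of the difference from WT between the times was also tested. For untreated Lipa-/- livers 0 of the 10 were called (0.0619% of all genes), with Ctsc alone at an unadjusted p under 0.05, as were 1378 of all genes, and DESeq2 called Ctsc. For treated livers 3 were called, all with a smaller difference at 34-weeks, where 18.4% of all genes were called in either direction. These were Ctsh (-2.11 ± 0.63, adjusted p = 0.0325), Ctsc (-1.95 ± 0.41, adjusted p = 0.0237) and Ctsd (-1.08 ± 0.36, edgeR adjusted p = 0.0445). With TPM and a pseudocount of 1, 0 members were called, beside 1583 of 14533 genes.

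Effective transcript length, the abundance-weighted mean over the transcripts of a gene that Salmon assigned, passed the test for Ctsb alone among the members. For Ctsb it was 2635, 2713 and 2637 bases in WT and 4489, 3696 and 3285 bases in Lipa-/- livers of 12-weeks, and 2936, 2676 and 2608 against 3724, 4441 and 3568 bases at 34-weeks. The groups did not overlap. The log2 ratio was 0.51 ± 0.11 at both times and did not pass the test (limma adjusted p = 0.0667 and 0.0722), which 0.427% and 0.64% of all genes passed. Ctsa and Ctsl at 12-weeks and Ctsc and Ctsd at 34-weeks also did not overlap between WT and Lipa-/- livers. Their log2 ratios of 0.13, 0.06, -0.03 and -0.03 did not pass the test (limma adjusted p from 0.517 to 0.781). How many of all genes lacked overlap in length was not counted, so no difference is read from it for any member. Treated livers of 12-weeks had 4306, 3846 and 3445 bases and differed from WT (0.53 ± 0.11, limma adjusted p = 0.019, passed by 5.5% of all genes). At 34-weeks they had 2638, 2802 and 3013 bases, overlapping WT (0.04 ± 0.11, adjusted p = 1, with 0.0206% of all genes passing), and they differed from treated livers of 12-weeks (-0.45 ± 0.11, adjusted p = 0.0319, with 6.7% passing). The call at 12-weeks was lost without WT mouse 1 or 3 or treated mouse 10 or 11. Ctsb has 47 annotated transcripts of 801 to 5055 bases in GENCODE vM39, and its gene at chromosome 14, 63358384 to 63383372 of GRCm39, overlaps Fdft1 on the other strand. Which transcripts differed cannot be read from gene-level values.

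**Figure D5:**
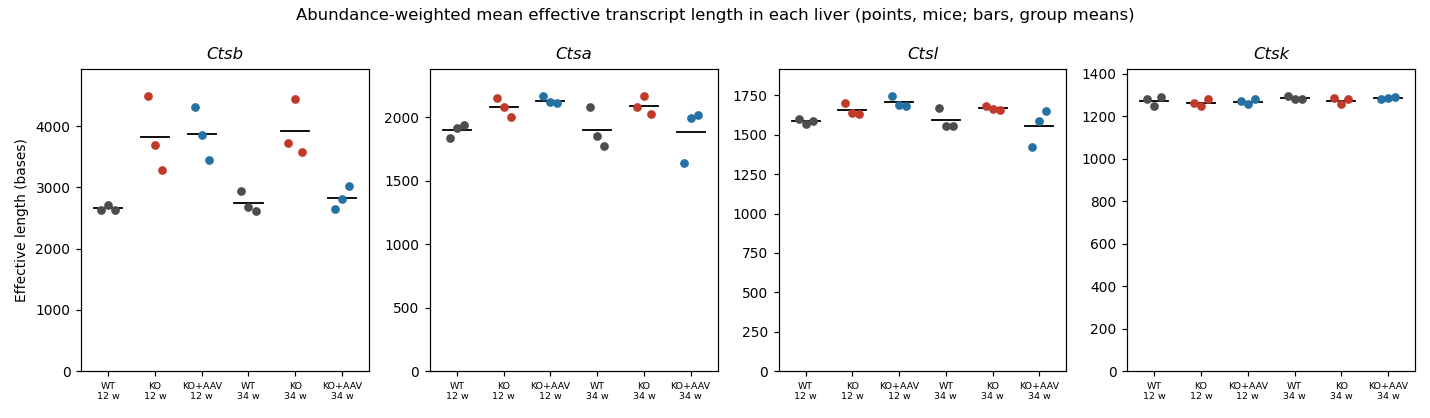
Effective transcript length in bases (y axes, from 0) of Ctsb, Ctsa, Ctsl and Ctsk in each liver (points, 3 mice per group; bars, group means; KO, untreated Lipa-/-; KO+AAV, rAAV8-treated Lipa-/-; w, weeks post-injection). Ctsb runs from 3285 to 4489 bases in untreated Lipa-/- livers and in treated livers of 12-weeks, and from 2608 to 3013 bases in the others.

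Because length enters the scaling, Ctsb was the member most altered by length offsets. In treated against WT livers at 12-weeks its log2 fold change was 0.70 from counts and 0.13 with the deposited lengths as offsets (edgeR adjusted p = 0.733). Some members overlap other genes in position, and whether reads were shared between them was not tested. Ctsa overlaps Neurl2 and Pltp, and Ctsz overlaps Nelfcd, on the other strand, and Ctsd overlaps Gm49369 on the same strand, which had 1254 reads over the 18 mice.

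Of the 13 cathepsin genes outside these 10, 9 did not pass the filter, among them the placental genes Ctsj and Ctsm, and all 9 had no reads in WT livers of either time. Ctso had 55.1, 61.2 and 46.4 CPM in WT and 25.6, 45.9 and 49.6 CPM in Lipa-/- livers of 12-weeks. At 34-weeks it was 2.43-fold lower in Lipa-/- livers (edgeR adjusted p = 0.00138), with 22.7, 26.4 and 30.2 CPM against 84.7, 54.0 and 54.3 CPM. Ctsf ran from 10.0 to 17.5 CPM in Lipa-/- and from 17.0 to 22.1 CPM in WT livers, and was not called at 12-weeks (-0.57 ± 0.23, adjusted p = 0.0648) or at 34-weeks (-0.58 ± 0.23, adjusted p = 0.0516). Ctsw of cytotoxic lymphocytes and Ctsg of neutrophils were called higher at both times, Ctsw by 2.57 and 2.53 on the log2 scale and Ctsg from 0 reads in WT livers of 12-weeks. Ctsg varied widely, with 61, 16 and 517 reads in Lipa-/- mice 5, 8 and 9 of 12-weeks (log2 fold change 10.5 ± 3.0, edgeR adjusted p = 0.0122). At 34-weeks treated mouse 12 had 288 Ctsg reads, and treated mice 9 and 11 had 0.

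Of 21 cystatin and other inhibitor genes, 9 were tested, and 6 were called higher and 0 lower in Lipa-/- livers of 12-weeks, with 5 higher and 1 lower at 34-weeks, the serpin Serpinb1a, named after its value was seen (median log2 fold change 2.55 and 2.14). The largest changes were those of Stfa2l1 (6.03 and 6.22) and Cstdc4 (5.57 and 3.60), stefins of myeloid cells, and of Cst7 (3.73 at 12-weeks), an inhibitor of lysosomal cathepsins in immune cells. In treated against untreated livers 3 were lower at 12-weeks and 4 at 34-weeks, where 25.3% and 18.6% of all genes were called lower. Among 11 genes for the delivery and activation of lysosomal enzymes, 5 were higher at 12-weeks and 7 at 34-weeks, and none lower, led by legumain Lgmn, which cleaves procathepsins (3.29 and 2.89), prosaposin Psap (3.26 and 2.85) and the transcription factor Tfeb (1.51 and 1.08). In treated against untreated livers 9 of the 11 were lower at 12-weeks and 6 at 34-weeks. Of 6 other lysosomal peptidases, Napsa (6.37 and 4.36), Prcp (2.29 and 1.48) and Dpp7 (1.72 and 1.09) were called higher at both times.

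Genes downstream of cathepsins S and C were set beside them. All 7 class II presentation genes were called higher in Lipa-/- livers of 12-weeks and 3 of 7 at 34-weeks, the invariant chain Cd74 by 2.90 and 1.55 on the log2 scale, H2-DMb1 by 2.82 and 1.60 and H2-DMa by 2.43 and 1.29. In treated against untreated livers Cd74 and H2-DMa were lower at 12-weeks (-2.55 and -1.35), and at 34-weeks their log2 fold changes were -0.55 and -0.54 (edgeR adjusted p = 0.486 and 0.296). Of 4 granule serine proteases that Ctsc activates, Elane, Prtn3 and Gzmb were called higher at both times and Gzma at neither (1.65 ± 0.81, adjusted p = 0.121, at 12-weeks). In treated against untreated livers Elane (-5.08) and Prtn3 (-5.43) were lower at 12-weeks (edgeR adjusted p = 0.0206 and 0.00263) and not called at 34-weeks. Gzma was higher at both times (2.04 and 2.29, edgeR adjusted p = 0.0273 and 0.0247). Treated livers of 34-weeks differed widely among themselves, with 1.64, 1.79 and 75.8 CPM summed over the 4 genes. The sums of that time ran from 29.1 to 34.9 CPM in untreated Lipa-/- and from 0.584 to 2.25 CPM in WT livers.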

How the data were processed

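The authors quantified poly(A) RNA-seq reads with Salmon on GRCm39 and collapsed transcripts to genes with tximport, and the estimated counts were deposited unscaled, with TPM and effective lengths (bases) beside them. A table of the authors' DESeq2 comparisons (DESeq2 1.40.1 under R 4.3.0 in the submitters' processing notes) was not used. Counts, of which 19.4% were not whole, were rounded. In R 4.3.3, edgeR 4.0.16 gave TMM factors and quasi-likelihood tests of 11 comparisons from 1 model of 6 groups, adjusted by Benjamini-Hochberg over 14533 genes. Lengths were tested with limma 3.58.1 on the log2 scale. The fit was tested on simulated data. Alternatives used DESeq2 1.42.0, other scalings, TPM with a pseudocount of 1 or 0.1, other filters and thresholds, and each mouse left out. Exact permutation of 3 against 3 mice reaches p = 0.1 at best, so p values rest on the model. Named were all members, other cathepsins with a mean of at least 1 CPM, the 3 genes of each list with the largest log2 change in Lipa-/- against WT at 12-weeks (all of lists of 4 or fewer) and the 3 nearest profiles per member. Cathepsins and lists were chosen with earlier results of these data known, and give no independent support. Depth is given as estimated reads per library. Positions are from GENCODE vM39, which may differ from the annotation the authors used.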

Additional observations from a re-analysis of the deposited data

Results flagged for a closer look

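For 3 cathepsins the difference between treated Lipa-/- and WT livers changed between 12-weeks and 34-weeks by the edgeR test of the interaction. Over all genes, 18.4% were called in the same test in either direction. None of the 3 calls held with TPM, with only the groups compared or at an adjusted p under 0.01. The change was -2.11 on the log2 scale for Ctsh, -1.95 for Ctsc and -1.08 for Ctsd. For Ctsc, treated livers fell from between 86.6 and 133 CPM to between 50.6 and 95.9 CPM while WT livers went from between 34.3 and 46.3 CPM to between 76.5 and 127 CPM. For Ctsd and Ctsh the WT ranges at the 2 times were 315 to 390 and 381 to 396 CPM, and 218 to 437 and 222 to 675 CPM. When each of the 12 mice concerned was left out in turn, the call was lost 4 times for Ctsc, 6 times for Ctsh and 10 times for Ctsd. All 3 calls were lost without WT mouse 1 or 3 of 12-weeks, WT mouse 1 of 34-weeks or treated mouse 9 of 34-weeks, those of Ctsh and Ctsd also without treated mouse 10 of 12-weeks or 11 of 34-weeks, and that of Ctsd also without treated mouse 11 of 12-weeks, WT mouse 2 or 3 of 34-weeks or treated mouse 12 of 34-weeks. Ctsh was at -1.39 without WT mouse 1 of 34-weeks. All mice of 34-weeks share a study code that no mouse of 12-weeks has, and the 3 treated mice of 12-weeks have the lowest TMM factors, whose part was not tested.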

How the results depend on the processing

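The number of cathepsins called changed by no more than 1.5 times under every alternative run for Lipa-/- against WT (12-weeks 7, range 7 to 9; 34-weeks 6, range 6 to 8), for treated against untreated Lipa-/- (8, range 7 to 9, then 6, range 6 to 8), for treated against WT at 34-weeks (0 in all) and for untreated Lipa-/- between the times (0 in all). For treated against WT at 12-weeks, 5 became 3 with limma on log2(TPM + 1) or log2(TPM + 0.1) and from 3 to 5 with each mouse left out, the 3 without treated mouse 10. For WT between the times, 0 became 1 (Ctsc) with DESeq2 and with no filter. For treated livers between the times, 3 became 5 with the adjusted p alone, and with TPM Ctsb and Ctsl reversed and were called higher at 34-weeks, by 1.08 and 1.09 for Ctsb and 1.04 and 1.04 for Ctsl with a pseudocount of 1 and 0.1. For the change of the Lipa-/- difference, 0 became 1 (Ctsc) with DESeq2. For the change of the treated difference, 3 became 1 with total counts, 0 with either TPM setting, 0 with only the groups compared, 0 with an adjusted p under 0.01, and from 0 to 3 with each mouse left out (0 without WT mouse 1 or 3 of 12-weeks, WT mouse 1 of 34-weeks or treated mouse 9 of 34-weeks, and 1 without treated mouse 10 of 12-weeks or 11 of 34-weeks). The count of cathepsins with a length difference in Lipa-/- against WT at 12-weeks was 0, and from 0 to 1 with each mouse left out (1, Ctsb, without Lipa-/- mouse 9), and stayed 0 with each mouse's shift in fragment length removed, an alternative chosen after seeing the data. The causes of these changes were not tested. Over 110 fold changes and 1888 alternatives, 1681 stayed on their side of the thresholds, 60 lost a call, 38 gained one, 4 reversed (Ctsb and Ctsl above) and 105 changed sign without a call. Mouse numbers recur in WT mice 1, 2 and 3 and in treated mice 11 and 12 of both times, but these were different animals, and the correlations of their deviations ran from -0.24 to 0.46 and from -0.253 to -0.077, so they share only a number. With the mouse number as a replicate block, 0 cathepsins were called in WT and 2 in treated livers between the times. Over all genes, 1 of 12105 was called in WT and 1704 of 12318 in treated livers. Counts of a few reads limit Ctse throughout and Ctsk in WT livers.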
